A study of Mus musculus with 4 samples.

Results

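The macrophage fusion and osteoclast programme was read from 10 genes chosen by name: Dcstamp, Ocstamp, Cdh1, Acp5, Oscar, Itgb3, Nfatc1, Tnfrsf11a, Trem2 and Tyrobp. All 10 were found on the array, among 19938 genes in all, and each was measured by 1 probe set that carried no other gene. The cells were macrophages grown from bone marrow of C57BL/6N mice in 10 ng/mL M-CSF and harvested on day 9. M1 cells had been given 10 ng/mL interferon-γ for 48 h and M2 cells 20 ng/mL interleukin-4 for 48 h. Each phenotype was then compared with and without interleukin-1α (IL-1α), an inflammatory cytokine, at 10 ng/mL for 24 h, which gave 4 groups. Each group (M1 or M2, with vehicle or with IL-1α) held 1 array, so no level has a standard deviation, and the M1 and M2 cells differ in the cytokine given with no group that received neither. The study asked how the phenotypes differ in their response to IL-1α. No exogenous RANK ligand is named in the labels' protocols, and the cells were labelled macrophages, not osteoclasts.

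Macrophages and osteoclasts share a bone marrow precursor that depends on M-CSF, and cells of that lineage can fuse into multinucleated cells. RANK ligand acting on its receptor RANK drives fusion into osteoclasts, with a second signal from receptors that pair with adaptors bearing an immunoreceptor tyrosine-based activation motif (ITAM). Both signals converge on the transcription factor NFATc1, which switches on the genes of fusion, attachment and bone resorption. Interleukin-4 drives a related fusion, into multinucleated giant cells, and it also restrains osteoclast formation driven by RANK ligand.

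A level here is the log2 signal that RMA, a standard summary of array probes, gave for a probe set, and a difference is in log2 units where no fold is written. The median gene of the 4 arrays had a level of 7.617, which served as a floor, and a level under it is not shown to be above background. Signals of different probe sets are not set against each other. In bulk RNA, fewer cells of a type and less RNA per cell cannot be told apart. Of 12 macrophage markers 11 were measured, and all 11 reached the floor on at least 1 array, 9 of them on all 4. With vehicle, 3 of the 11 (Fcgr1, Cd14 and Aif1) were at least 2-fold lower in M2 and 0 higher, against 6.83% and 7.03% of all genes. The mean level of the 11 was 12.2 in M1 and 11.4 in M2. Of 8 further osteoclast markers that are not among the 10 genes, Calcr, the calcitonin receptor that marks mature osteoclasts, was under the floor on all 4 arrays. Of the 7 at the floor with vehicle, 3 (Ctsk, Mmp9 and Atp6v0d2) were at least 2-fold higher in M2 than in M1 and 0 lower. The shares of all genes were 7.03% and 6.83%. Among the rest, Car2 was at 0.33, Siglec15 at 0.14, Tcirg1 at -0.07 and Clcn7 at -0.94.

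The M2 and M1 arrays were compared first. With vehicle, 9 of the 10 reached the floor, and of these 6 had an M2 level at least 2-fold above that of M1 and 0 a level 2-fold below it, against 7.03% and 6.83% of all 10489 genes. The 6 were the fusion genes Dcstamp, Ocstamp and Cdh1, the integrin subunit Itgb3, the phosphatase Acp5 and the receptor Trem2. Dcstamp, Itgb3 and Cdh1 were under the floor in M1 and entered this count only through the M2 array on which they were high. Tyrobp, Nfatc1 and Tnfrsf11a stayed within 2-fold, and Oscar was under the floor on every array. The median difference over all 10 genes was 1.26, against 0.01 over all genes at the floor, and the values ran from -0.73 for Tnfrsf11a to 4.60 for Dcstamp. The genes were chosen with earlier results of these arrays known, and Dcstamp had already been seen to differ, so these counts describe the 10 genes and are no independent evidence.

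**Figure D1:**
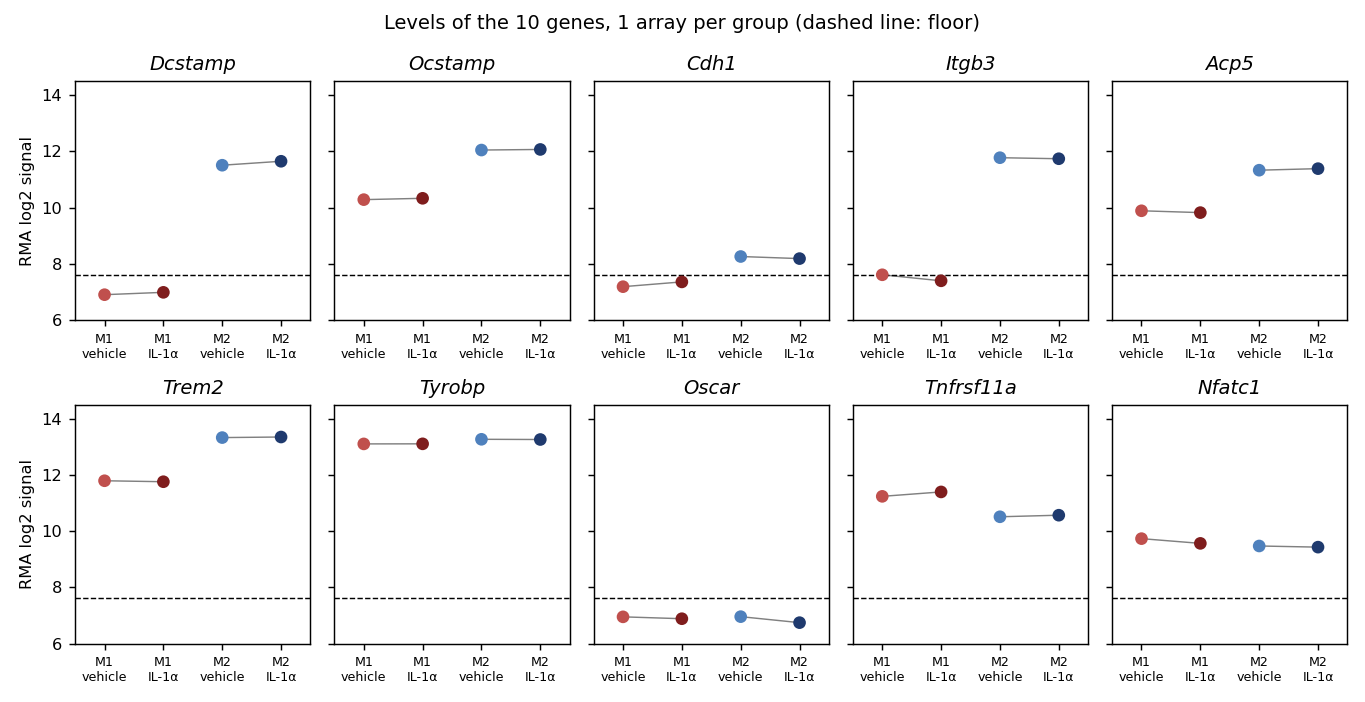
RMA log2 signal (y axis) of each of the 10 genes on the 4 arrays (x axis), 1 point per array, grey lines joining the vehicle and IL-1α arrays of a phenotype and the dashed line marking the floor of 7.617. Dcstamp and Itgb3 step up from under the floor in M1 to above 11 in M2, Ocstamp, Acp5 and Trem2 step up within the measured range, and Oscar stays under the floor.

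Among the fusion genes, Dcstamp showed the widest separation. It encodes a membrane protein of many passes that cells need to fuse into osteoclasts and giant cells. Dcstamp (probe set 10423894) read 6.90 in M1 vehicle, 6.98 in M1 IL-1α, 11.51 in M2 vehicle and 11.65 in M2 IL-1α. Both M1 arrays were under the floor and both M2 arrays were well above it, so the groups were far apart while the M1 baseline is uncertain. The M2 minus M1 difference was 4.60 with vehicle (24.3-fold) and 4.66 with IL-1α (25.3-fold). Taken against the floor instead of the M1 level, the M2 vehicle signal was 14.8-fold higher. By this difference with vehicle it was the 17th highest of 10489 genes.

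Ocstamp encodes a second membrane protein of the same kind, also needed for fusion. Ocstamp (probe set 10489701) read 10.28 in M1 vehicle, 10.33 in M1 IL-1α, 12.05 in M2 vehicle and 12.07 in M2 IL-1α. All 4 levels were above the floor, and the M2 arrays lay above the M1 arrays by 1.76 with vehicle (3.40-fold) and 1.74 with IL-1α (3.33-fold). Unlike Dcstamp, Ocstamp was thus clearly measured in M1 as well.

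Cdh1 encodes E-cadherin, an adhesion protein of epithelia that interleukin-4 can also bring to the macrophage surface, where it serves contact before fusion. Cdh1 (probe set 10575052) read 7.19 in M1 vehicle, 7.36 in M1 IL-1α, 8.26 in M2 vehicle and 8.18 in M2 IL-1α. The M1 arrays were under the floor and the M2 arrays only just above it, by 0.64 and 0.57, so of the 6 genes it lay nearest to the 2-fold line. The difference was 1.07 with vehicle (2.10-fold) and 0.83 with IL-1α (1.78-fold), which is past 2-fold only with vehicle. Of 7 other epithelial markers, 5 (Epcam, Krt18, Krt19, Cldn7 and Esrp1) were under the floor on all 4 arrays. Krt8 was above it on all 4 (8.12 in M1 vehicle and 8.01 in M2 vehicle), at about the M2 level of Cdh1, and Cldn4 on 3. The mean level of the 7 ran from 6.78 to 6.87 over the 4 arrays.

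Itgb3 encodes the β3 integrin subunit, which with the αv subunit forms the vitronectin receptor that fastens osteoclasts to bone. Itgb3 (probe set 10381809) read 7.61 in M1 vehicle, 7.40 in M1 IL-1α, 11.77 in M2 vehicle and 11.74 in M2 IL-1α. The M1 arrays were under the floor, M1 vehicle by less than 0.01, and the M2 arrays far above it, with a difference of 4.16 with vehicle (17.9-fold) and 4.34 with IL-1α (20.3-fold). It was the 22nd highest gene with either treatment, after Dcstamp among the 10 genes. The αv subunit gene Itgav, named after its values were seen, read 11.80 in M1 vehicle, 11.75 in M1 IL-1α, 11.24 in M2 vehicle and 11.26 in M2 IL-1α.

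Acp5 encodes tartrate-resistant acid phosphatase, the enzyme stained to identify osteoclasts. Acp5 (probe set 10591739) read 9.89 in M1 vehicle, 9.82 in M1 IL-1α, 11.33 in M2 vehicle and 11.38 in M2 IL-1α. All levels were above the floor, and M2 was higher by 1.44 with vehicle (2.72-fold) and 1.56 with IL-1α (2.96-fold).

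Trem2 and Tyrobp encode a receptor and its adaptor. TREM2 senses lipids and has no signalling tail of its own, and TYROBP (DAP12) carries the ITAM through which it signals. Trem2 (probe set 10445781) read 11.80 in M1 vehicle, 11.76 in M1 IL-1α, 13.33 in M2 vehicle and 13.35 in M2 IL-1α, and the M2 arrays were higher by 1.54 (2.90-fold) and 1.59 (3.01-fold). Tyrobp (probe set 10551883) read 13.11 on both M1 arrays, 13.27 in M2 vehicle and 13.26 in M2 IL-1α, so it was higher in M2 by 0.16 and 0.15. The M2 minus M1 difference was thus 1.54 for the receptor and 0.16 for its adaptor with vehicle. The highest signals of any single-gene probe set were 14.28 to 14.35 per array, and whether signals near that limit are compressed was not tested.

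Acp5 and Trem2 are the genes past 2-fold that had promoter windows at hand, and 1 window of each is shown. RefSeq promoter windows (GRCm38.p6, 250 bases before to 50 after a start) were at hand for 4 of the 10 genes: Acp5 with 3 starts, and Oscar, Tnfrsf11a and Trem2 with 1 each. The windows were searched on both strands for motifs, of which 6 are reported. These were TTC and GAA with 4 bases between them (STAT6 type), TGANTCA (AP-1), GGAAAN (NFAT core), GAGGAA (PU.1 type), GAAA repeated after 2 bases (the interferon-stimulated response element) and CANNTG (E-box). The Acp5 window printed is the only one of the 6 with a STAT6-type match, at chr9:22130549-22130848 on the minus strand, and the Trem2 window is the only one with TGANTCA, at chr17:48346151-48346450 on the plus strand. Capitals mark every match to the motifs other than the E-box, and matches to different motifs can overlap and run together.
Acp5: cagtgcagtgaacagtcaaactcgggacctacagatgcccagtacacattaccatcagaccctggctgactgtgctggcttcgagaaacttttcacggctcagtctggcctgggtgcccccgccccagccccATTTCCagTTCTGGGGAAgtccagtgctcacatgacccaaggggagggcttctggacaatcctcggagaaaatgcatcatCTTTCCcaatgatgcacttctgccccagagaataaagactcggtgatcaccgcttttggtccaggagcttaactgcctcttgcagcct
Trem2: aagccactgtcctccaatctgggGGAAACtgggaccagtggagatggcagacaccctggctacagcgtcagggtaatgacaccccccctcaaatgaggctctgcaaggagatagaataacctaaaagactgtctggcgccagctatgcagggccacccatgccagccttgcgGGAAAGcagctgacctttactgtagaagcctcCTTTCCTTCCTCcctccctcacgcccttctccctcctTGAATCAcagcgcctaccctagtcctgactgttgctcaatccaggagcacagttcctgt
In the Acp5 window the STAT6-type match begins at position -110 from the start, and the window also holds 2 GGAAAN matches. In the Trem2 window the TGANTCA match begins at position -9, with 3 GGAAAN matches and 1 GAGGAA match further upstream. Among all 32851 windows of this length, 6.95% held the STAT6-type motif, 7.81% TGANTCA, 61.2% GGAAAN and 28.3% GAGGAA. Each of the other Acp5 windows held 1 GGAAAN match. The Oscar window held 4 GGAAAN and 2 GAGGAA matches, and the Tnfrsf11a window held CANNTG alone. The interferon-stimulated response element, present in 3.44% of all windows, was in none of the 6, and all 6 held CANNTG, as did 72.3% of all windows. These are matches of letters and show no binding.

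The remaining 3 genes did not follow the fusion genes. Tnfrsf11a, which encodes RANK, was lower in M2. Tnfrsf11a (probe set 10349051) read 11.24 in M1 vehicle, 11.40 in M1 IL-1α, 10.52 in M2 vehicle and 10.57 in M2 IL-1α. Both M2 arrays lay below both M1 arrays, by 0.73 with vehicle (1.66-fold) and 0.83 with IL-1α (1.78-fold), short of 2-fold. Nfatc1 (probe set 10459944) read 9.74 in M1 vehicle, 9.57 in M1 IL-1α, 9.48 in M2 vehicle and 9.44 in M2 IL-1α, which is a difference of -0.26 with vehicle and -0.13 with IL-1α. The 4 levels lay within 0.30 of each other. Oscar encodes a collagen receptor that pairs with the Fc receptor γ chain and gives the second signal in osteoclasts. Oscar (probe set 10559399) read 6.96 in M1 vehicle, 6.89 in M1 IL-1α, 6.96 in M2 vehicle and 6.75 in M2 IL-1α, under the floor throughout, so no difference was counted for it.

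**Figure D2:**
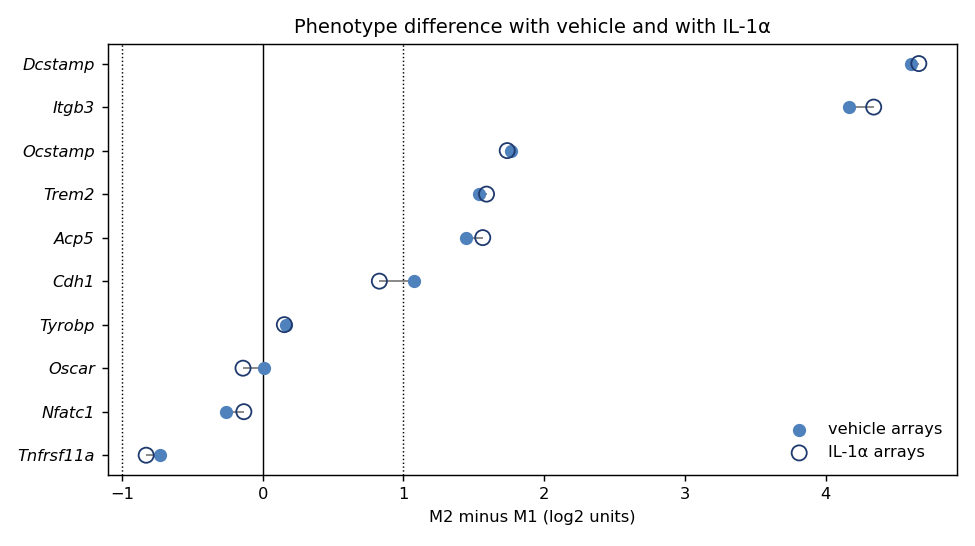
M2 minus M1 difference in log2 units (x axis) for each of the 10 genes (y axis), filled points from the vehicle arrays and open points from the IL-1α arrays, dotted lines at 2-fold. Dcstamp and Itgb3 lie beyond 4 in both pairs, Cdh1 is the gene whose 2 points lie on either side of the 2-fold line, and Tnfrsf11a lies lowest.

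The difference was then read on the pair of arrays given IL-1α, which shares no array with the vehicle pair. There, 5 of the 9 genes at the floor passed 2-fold upward in M2 and 0 downward, against 8.15% and 6.06% of all 10479 genes. The 5 were Dcstamp, Itgb3, Ocstamp, Trem2 and Acp5, and Cdh1 was the gene that dropped out. Dcstamp and Itgb3 again entered the count only through the M2 array, being under the floor in M1. At a 1.5-fold threshold, 6 genes were higher and 1, Tnfrsf11a, lower with vehicle, against 14.1% and 13.3% of all genes, and with IL-1α again 6 higher and 1 lower, against 16.6% and 11.4%. Whether the 4 arrays came from separate cultures or animals is not stated in the labels, so both pairs may come from the same cells.

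**Figure D3:**
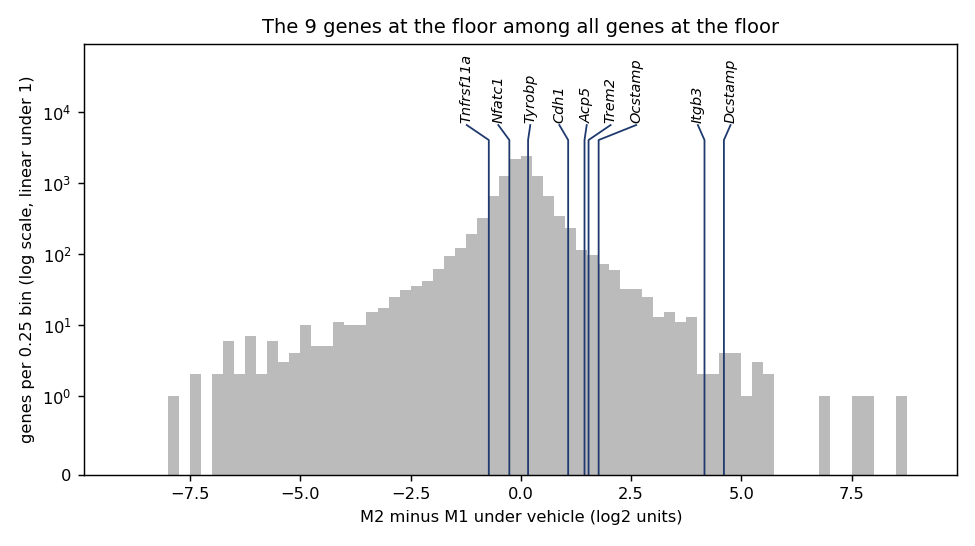
Number of genes at the floor (y axis, log scale above 1) by M2 minus M1 difference with vehicle in log2 units (x axis, bins of 0.25), with blue lines at the 9 fusion and osteoclast genes that reached the floor. Dcstamp and Itgb3 stand in the thin upper tail, Ocstamp, Trem2, Acp5 and Cdh1 on its shoulder, and Tyrobp, Nfatc1 and Tnfrsf11a in the bulk of the distribution.

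A test was possible only in a model that used all 4 arrays, with phenotype and treatment as additive terms (limma, Benjamini-Hochberg over all 10625 genes at the floor). It sets each effect against the departure from additivity, not against a spread between replicates, and each gene has 1 residual degree of freedom of its own besides the 10.05 borrowed across genes. Of the 9 genes tested, limma called 7 higher in M2 and 2 lower, against 33.2% and 29.3% of all genes. All 9 had an unadjusted limma p under 0.05, as did 65.5% of all genes. For all 9, both M2 arrays lay on the same side of both M1 arrays (7 above and 2 below), which also held for 43.1% (above) and 38.3% (below) of all genes. The effect was 4.63 ± 0.08 (SE) for Dcstamp with a limma adjusted p of 1.61e-12, and 4.25 ± 0.08 for Itgb3 with a limma adjusted p of 2.77e-12. Ocstamp rose by 1.75 ± 0.06, Trem2 by 1.56 ± 0.05, Acp5 by 1.504 ± 0.068 and Cdh1 by 0.95 ± 0.11 (SE), with limma adjusted p from 1.10e-10 to 1.11e-05. Dcstamp, Itgb3 and Cdh1 had both M1 arrays under the floor and entered the test, and the counts of 7, only through their M2 arrays. Their effects, SEs and p-values rest on M1 levels not shown to be above background. Tyrobp was higher by 0.16 ± 0.04 (SE, limma adjusted p = 0.0063), a call that was lost with loess centring of the arrays (0.05, limma adjusted p = 0.241) and with eBayes fitted without the trend (limma adjusted p = 0.093). Tnfrsf11a fell by 0.78 ± 0.06 (SE) in M2, with a limma adjusted p of 7.22e-07. Nfatc1 was at -0.20 ± 0.08 (SE) with a limma adjusted p of 0.0497, which just passed, and 4 of 7 alternative settings put its adjusted p between 0.0555 and 0.0893.

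In M1 the 10 genes read near their vehicle levels with IL-1α. The differences ran from -0.21 for Itgb3 to 0.17 for Cdh1, with 5 genes above 0 and 5 below and a median of -0.02. Itgb3, Cdh1, Dcstamp and Oscar were under the floor on both M1 arrays, so a response of theirs could not be read there. None of the 6 genes at the floor on an M1 array reached 2-fold, nor did any of all 10012 genes (0.0% higher and 0.0% lower), and none reached 1.5-fold, where 0.02% of all genes were higher and 0.04% lower. The central 95% of all genes at the floor lay between -0.24 and 0.21. All 10 genes were inside that range, those under the floor included. RANK, Tnfrsf11a, was at 0.16 and Nfatc1 at -0.17, the former the 618th highest and the latter the 662nd lowest of the 10012.

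In M2 the 10 genes also read near their vehicle levels, while some other genes differed by 2-fold between the vehicle and IL-1α arrays. No difference within M2 was tested. The differences of the 10 genes ran from -0.21 for Oscar, which was under the floor, to 0.14 for Dcstamp, with a median of 0.01 against 0.05 for all 10284 genes at the floor. None of the 9 genes at the floor reached 2-fold, where 0.35% of all genes were 2-fold higher and 0.0% lower, and none reached 1.5-fold, where 0.875% were higher. All 10 lay inside the central 95% of all genes, which spanned -0.23 to 0.38. Of the 6 genes past 2-fold between phenotypes, Dcstamp was at 0.14, Acp5 at 0.05, Ocstamp and Trem2 each at 0.02, Itgb3 at -0.04 and Cdh1 at -0.07.

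**Figure D4:**
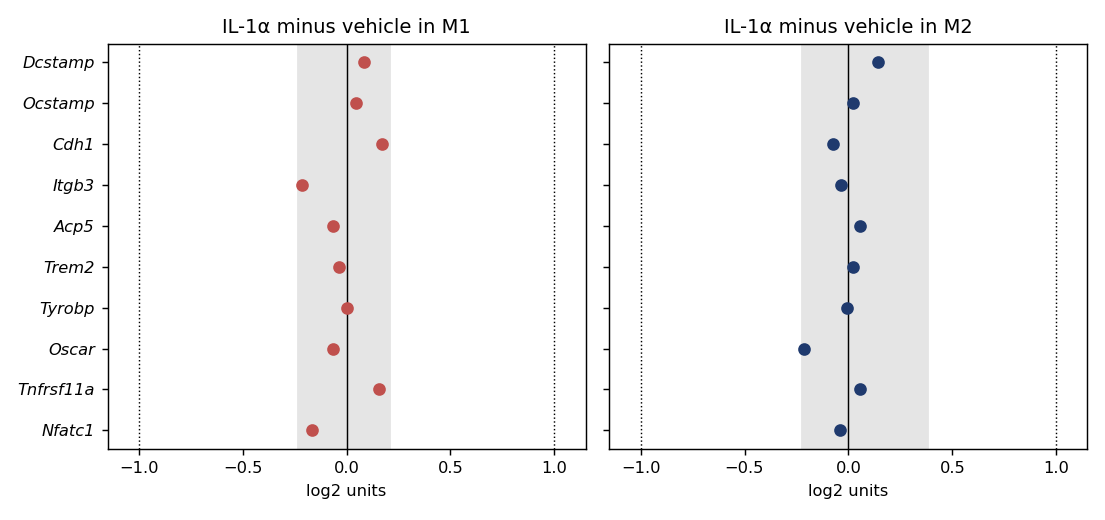
IL-1α minus vehicle difference in log2 units (x axis) for each of the 10 genes (y axis) in M1 (left) and M2 (right), with the grey band holding the central 95% of all genes at the floor and dotted lines at 2-fold. All 10 points lie within the band in both panels and far from the 2-fold lines. Dcstamp, Cdh1 and Itgb3 were under the floor on both M1 arrays, and Oscar on every array.

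In the additive model, 0 of the 9 genes tested passed for the IL-1α term, which is shared by M1 and M2, with limma adjusted p from 0.877 upward, and 0 of 9 had an unadjusted p under 0.05. Over all 10625 genes limma also called 0.0% in each direction, and 646 genes (6.08%) had an unadjusted p under 0.05. The SEs of these 9 effects were 0.04 to 0.11. The response in M2 less that in M1 ran from -0.24 for Cdh1 to 0.18 for Itgb3, both of which were under the floor on the M1 arrays. None of the 9 genes reached 2-fold in that contrast, where 0.32% of 10625 genes were higher and 0.0% lower, and none reached 1.5-fold, where 1.02% were higher and 0.141% lower. With 4 arrays no degree of freedom is left to test that contrast. The M1 and M2 responses and the phenotype differences share arrays, so these values stand side by side and are not set against one another.

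Genes of the surrounding pathways were then read from 8 lists holding 167 genes besides the 10. With vehicle, 142 of the 160 measured reached the floor. Of these, 23 were 2-fold or more above M1 in M2 and 25 were 2-fold or more below, and limma called 57 of the 143 tested higher and 64 lower. These are 16.2% higher and 17.6% lower at 2-fold, against 7.03% and 6.83% of all genes, and 39.9% and 44.8% by limma, against 33.2% and 29.3% of all genes. The same all-gene shares stand behind each list below, the lists hold few genes, and no list was tested against the rest.

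Of 21 other fusion genes that reached the floor, 5 passed 2-fold upward in M2 (23.8%, against 7.03% of all genes) and 2 downward (9.52%, against 6.83%), with a median of 0.13. By limma 52.4% were called up and 33.3% down, against 33.2% and 29.3% of all genes. Mmp9, a gelatinase that takes part in giant cell formation, read 8.12 in M1 vehicle and 11.35 in M2 vehicle, a difference of 3.23. The tetraspanin Cd9 was higher by 3.07 and the proton pump subunit Atp6v0d2, which is needed for osteoclast fusion, by 2.32. Cd200, the ligand of an inhibitory receptor that takes part in fusion, was lower by 1.48. Among 8 cadherin partners at the floor, 2 were 2-fold higher (25%) and 0 lower, with a median of 0.50: vinculin (Vcl, 2.35), which links adhesions to actin, and plakoglobin (Jup, 1.60), which binds cadherin tails. Ctnna1, α-catenin, was at 0.73, and Zeb1, a repressor of E-cadherin transcription, at -0.76 with M2 vehicle under the floor. Limma called 6 of these 8 higher (75%, against 33.2% of all genes) and 1 lower (12.5%, against 29.3%).

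Of 17 RANK signalling genes that reached the floor, 2 passed 2-fold upward (11.8%) and 1 downward (5.88%), near the all-gene shares of 7.03% and 6.83%, with a median of -0.25. By limma 35.3% were called up and 58.8% down, against 33.2% and 29.3% of all genes. The ubiquitin ligase Cblb, a brake on receptor signalling, was higher by 1.93 and the adaptor Traf5 by 1.10, whereas the adaptor Traf2 was at -1.66 and the kinase Map3k14 at -0.79. The decoy receptor gene Tnfrsf11b was under the floor on all 4 arrays. Of 22 ITAM pathway genes, 2 were 2-fold higher (9.09%, near the 7.03% of all genes) and 5 lower (22.7%, against 6.83%), with a median of -0.23. By limma 27.3% were called up and 50% down, against 33.2% and 29.3%. The receptor gene Cd300lb, whose product also pairs with DAP12, was higher by 1.80. Other genes of the TREM family went the opposite way to Trem2: Treml4 was at -2.99, Treml2 at -1.99 and Trem3 at -1.82, each under the floor on both M2 arrays, so that those sizes are uncertain.

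Of 24 osteoclast transcription factors reaching the floor, 4 were at least 2-fold higher and 4 lower (16.7% each way, against 7.03% and 6.83% of all genes), with a median of -0.09. By limma 37.5% were called up, near the 33.2% of all genes, and 41.7% down, against 29.3%. Myc was higher by 3.91 from an M1 level under the floor, Pparg by 2.20 and the AP-1 factor Fosl2 by 2.18. Jdp2, an AP-1 repressor that promotes osteoclast formation, was lower by 2.85. Of 16 genes listed as restraints on osteoclast formation, 1 was higher (6.25%, against 7.03% of all genes) and 6 were lower (37.5%, against 6.83%), with a median of -0.80. By limma 6.25% were called up and 75% down, against 33.2% and 29.3%. The list was drawn up by gene name, and whether its genes restrain osteoclast formation in these cells was not tested. The lowest were the leukocyte activation antigen Cd69 (-6.53) and Socs3 (-2.08), both under the floor in M2 vehicle, then the interferon-induced genes Irf1 (-1.93) and Socs1 (-1.73). Irf8, a repressor of Nfatc1 expression that was named after its values were seen, read 12.26 in M1 vehicle and 10.89 in M2 vehicle (-1.37). The 1 higher gene, Cebpa (1.47), also named after its values were seen, has also been described as promoting the osteoclast lineage, and Irf1, Irf8 and Socs1 are interferon-γ targets as well.

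Among 21 bone resorption genes reaching the floor, 5 passed 2-fold upward (23.8%, against 7.03% of all genes) and 3 downward (14.3%, against 6.83%), with a median of 0.26. By limma 57.1% were called up and 33.3% down, against 33.2% and 29.3%. Ctsk, the collagen-degrading cathepsin of osteoclasts, read 7.08 on both M1 arrays, under the floor, and 10.33 and 10.39 on the M2 arrays. Mmp14, a membrane collagenase, went the other way at -3.48, with M2 vehicle under the floor. The chloride channel gene Clcn7 (-0.94) and the proton pump subunit gene Tcirg1 (-0.07), both needed to acidify the resorption pit and the latter named after its values were seen, were not higher in M2. Of 16 integrins and integrin partners, 4 were 2-fold higher and 4 lower (25% each way, against 7.03% and 6.83% of all genes), with a median of 0.12. Of 17 tested, limma called 47.1% up and 41.2% down, against 33.2% and 29.3%. The β3 ligand fibronectin (Fn1) was higher by 4.70 and the integrin subunit Itgax by 2.98. Itgal, an integrin subunit of leukocyte contacts, was at -5.43 with M2 vehicle under the floor, and the kinase Ptk2b, which acts below β3 in osteoclasts, was at -1.57.

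**Figure D5:**
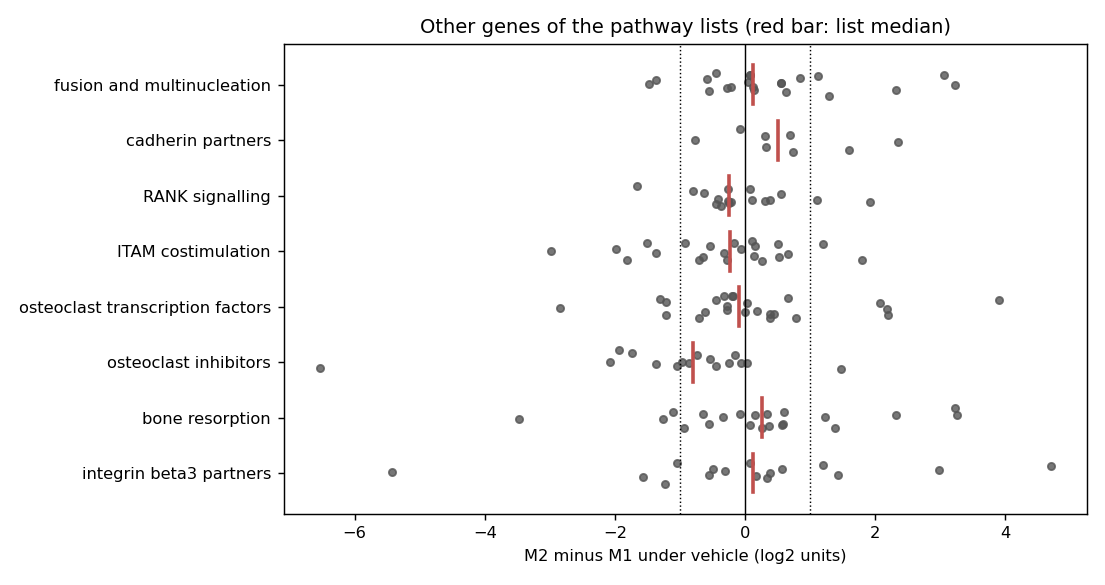
M2 minus M1 difference with vehicle in log2 units (x axis) for the other genes of 8 pathway lists (y axis) that reached the floor on a vehicle array, 1 point per gene, with the list median as a red bar and dotted lines at 2-fold. Medians lie between -0.80 for the inhibitor list and 0.50 for the cadherin partners, and most lists hold genes beyond 2-fold on both sides.

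With IL-1α, 0 of these pathway genes at the floor reached 2-fold in M1 (of 141) or in M2 (of 137). Over all genes the shares were 0.0% each way in M1, and 0.35% higher and 0.0% lower in M2. The pathway counts are near those shares and do not set the lists apart. The difference of Cd69 in M2 (1.06) lay under the floor on both arrays and was not counted. The highest differences in M2 among those at the floor were Relb at 0.92, Tnfaip3 at 0.87 and Nfkb2 at 0.82, all genes of NF-κB signalling, which the IL-1 receptor feeds. The cytokine signalling suppressor Socs3 followed at 0.78. Mmp14 was at 0.72 in M2, Itgal at 0.61 and Mmp9 at 0.55, and Mmp9 was at 0.22 in M1. The kinase gene Src, which osteoclasts need for their ruffled border, read 9.48 in M2 vehicle and 9.91 in M2 IL-1α (0.43), and the exchange factor gene Vav3 10.28 and 10.72 (0.44).

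For each of the 6 genes that varied by at least 1 over the arrays, the 3 genes with the most similar centred profile over the 4 arrays were taken from 10045 candidates. With 4 arrays, likeness reflects little more than the size of the M2 minus M1 difference. Nearest to Dcstamp were Fn1, Lipn and Irf4, at root mean square differences of 0.09 to 0.11. Nearest to Itgb3 were Plxdc2, Rras2 and Plekhf1, at 0.09 to 0.12. Ocstamp had Uhrf1, Fmo5 and Acy1, at 0.01 to 0.03, and Cdh1 had Prokr1, Gin1 and Eme1, at 0.02 to 0.03. Acp5 had Lrrc27, Smap2 and Bzw2 and Trem2 had Casp6, Smap2 and Cdk20, so Smap2 was near both.

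Some markers of other cells differed between the phenotypes. Of 9 neutrophil markers, 6 reached the floor on an M2 array and 0 on an M1 array, and the mean level of the 9 was 6.80 and 6.86 on the M1 arrays and 7.73 and 7.55 on the M2 arrays. With vehicle, 4 of the 6 were 2-fold higher in M2 and 0 lower, against 7.03% and 6.83% of all genes. They were Ngp (2.52), Mmp8 (1.40), S100a8 (1.26) and Ltf (1.12), sizes that rest on M1 levels under the floor. Limma called all 6 higher, against 33.2% of all genes. Ly6g, Camp and Elane were under the floor on all 4 arrays. Of 9 dendritic cell markers, 6 reached the floor with vehicle. Of these, 2 were 2-fold higher in M2 (Itgax and Batf3) and 3 lower, against 7.03% and 6.83% of all genes. The lower ones were Clec9a (-4.35), Xcr1 (-1.96) and Ccr7 (-1.76), each under the floor on both M2 arrays, and Flt3 was under the floor throughout. Their part in the differences of the fusion and osteoclast genes was not tested. Of 7 osteoblast and stromal markers measured, 0 differed by 2-fold with vehicle, and the mean level of the 7 ran from 7.41 to 7.57. The lymphocyte list had 2 of 8 measured markers at the floor on a vehicle array, and 0 differed by 2-fold. The mast cell and megakaryocyte list had 2 of 8 at the floor, of which Pf4, also a macrophage transcript, was higher in M2 by 1.58.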

How the data were processed

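Total RNA of 4 macrophage samples was hybridised to a single-colour Affymetrix mouse gene array, 1 array per group. Per the submitters' processing notes, the authors ran RMA in Expression Console (Affymetrix), and they deposited its log2 signal for each probe set. Versions, settings and genome build are not given in the sources used here. The log base was read from the values (3.09 to 14.47). RMA in general sets arrays to a common distribution and compresses dim signals.

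Of 35556 rows, 21789 carried 1 gene in the platform annotation (1621 several, 12146 none), and 21698 of these matched RefSeq by Entrez number. Probe sets of a gene were averaged. A difference counted at 2-fold where an array compared reached the floor (7.617). limma 3.58.1 (R 4.3.3, eBayes with trend) tested phenotype and treatment as additive terms at an adjusted p of 0.05. The p-values measure only these arrays, not cultures or animals. The model was also run on simulated data with additive effects. Their noise was the same for all genes and was set from the M1 vehicle and IL-1α arrays. That run cannot show whether the calls would hold across cultures or animals.

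The 10 genes, the lists and the tests were chosen with earlier results of these data known. Named genes are all 10, up to 4 per list by the largest vehicle difference, up to 2 per list by the largest IL-1α difference in M2, and 3 most similar genes per gene varying by at least 1. A gene named outside this rule is marked as such, except genes named as under the floor and osteoclast markers given to complete their list. List genes without a single-gene probe set were not analysed here, and some items, 1 promoter motif among them, are not reported here. Alternatives tried were 1.5-fold in place of 2-fold, leaving out the floor, raising it to the 75th percentile (9.635), quantile normalisation, loess centring, the brightest probe set, and eBayes without trend or robust.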

Additional observations from a re-analysis of the deposited data

Results flagged for a closer look

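Some differences ran in opposite directions in the groups compared, on 1 array each, and the opposition was not tested. The IL-1α response in M2 minus that in M1 was -0.24 for Cdh1 (0.17 in M1 and -0.07 in M2), 0.12 for Acp5 (-0.07 and 0.05), 0.0549 for Trem2 (-0.03 and 0.02) and -0.0101 for Tyrobp (0.003 and -0.008). The M2 minus M1 difference of Oscar was 0.007 with vehicle and -0.14 with IL-1α, a change of -0.15, with all 4 levels under the floor. Each of these differences is smaller than 0.25, and both M1 levels of Cdh1 were under the floor.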

How the results depend on the processing

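No paired analysis was possible because each group held 1 array, and for the same reason no array could be left out of a group. The count of genes 2-fold higher in M2 with vehicle was 6, and 5 without Cdh1 at the 75th percentile floor. With IL-1α it was 5 under each alternative that kept the 2-fold threshold, and 6 at 1.5-fold. At 1.5-fold, 1 gene, Tnfrsf11a, became lower in M2 with vehicle and 1 with IL-1α, where 0 were lower at 2-fold. The count of genes that limma called lower fell from 2 to 1 with no floor, with the floor at the 75th percentile, with the brightest probe set and with eBayes without the trend, because Nfatc1 was lost (limma adjusted p = 0.0893, 0.0609, 0.0555 and 0.0564). The count called higher fell from 7 to 6 in 3 settings: with the floor at the 75th percentile, which Cdh1 did not reach, and with loess centring and eBayes without the trend, where Tyrobp was lost. The phenotype effect of Tyrobp was 0.16, and 0.05 with loess centring. Its IL-1α effect, -0.002, turned to 0.0152 with quantile normalisation (limma adjusted p = 0.962). The IL-1α counts were 0 of the 10 genes in M1, in M2, in the difference of responses and in the limma fit under every alternative run. Over all genes, the counts at 2-fold with vehicle, 737 higher and 716 lower, became 1477 and 1400 at 1.5-fold, and 429 higher with the floor at the 75th percentile. With IL-1α, 854 higher and 635 lower became 1740 and 1197 at 1.5-fold, and 533 higher with that floor. The IL-1α response in M2 had 36 genes higher, 90 at 1.5-fold and 19 with that floor, and in M1 0 became 2 higher and 4 lower at 1.5-fold and 1 lower with no floor. The difference of responses had 34 genes higher, 108 at 1.5-fold, and 0 lower, 15 at 1.5-fold and 4 with no floor. limma called 3526 genes higher in M2, 2230 with the floor at the 75th percentile, where 1 gene had an IL-1α effect. Signals under the floor in M1 limit the sizes for Dcstamp, Cdh1 and Itgb3, and 1 array per group limits every difference.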
